A study of Mus musculus with 11 samples.

Results

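The core planar cell polarity genes were examined in the closing neural tube of mouse embryos, as the 10 genes Vangl1, Vangl2, Celsr1, Celsr2, Fzd3, Fzd6, Dvl2, Scrib, Ptk7 and Prickle1. These genes were chosen by name, with earlier results of these data known. They are 10 of 18193 genes that a probe set with exactly 1 gene symbol named, and all 10 were among the 13338 genes bright enough to test. Each gene was read from its probe set of highest mean over the 11 arrays. RNA was measured on Affymetrix whole-genome mouse arrays, and every value below is a deposited signal on the log2 scale, where a step of 1 is a doubling. All embryos were C57BL/6 with no mutation or treatment named in the labels. The groups were closed neural tube at E8.5 (embryonic day 8.5, n = 2 arrays), open neuroepithelium at E8.5 (n = 3), closed neural tube at E9.5 (n = 3) and open neuroepithelium at E9.5 (n = 3).

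Closed tissue was taken rostral to the point where the tube was still open, and open tissue caudal to it, so closure and position along the body axis cannot be told apart. Both were freed from underlying tissue with pancreatin and trypsin, and closely attached notochord came with them. Tissue was pooled by litter, from 111 embryos in all, and the labels do not say whether a closed and an open array share litters. Of 12 arrays hybridized, the authors dropped 1 of closed E8.5 tissue over quality. These are bulk samples, so fewer cells of a type and less RNA per cell cannot be told apart.

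Planar cell polarity aligns cells within the plane of an epithelium. In mice, Celsr cadherins join neighbouring cells. Frizzled receptors with Dishevelled gather on one side of each cell, and Vangl proteins with Prickle on the other. In the neural plate the pathway drives convergent extension, the narrowing and lengthening of the plate that brings the neural folds together. Mouse embryos that lack Vangl2, Scrib or Ptk7, or both Fzd3 and Fzd6, fail to close the neural tube along most of the body axis.

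Vangl1, Celsr2 and Fzd3 were higher in closed than in open tissue at both stages. Fzd6, Ptk7 and Prickle1 were lower in closed tissue at both stages. Vangl2, Celsr1, Dvl2 and Scrib did not pass the threshold at either stage, although Vangl2 passed at both with the replicate number as a block (adjusted p = 0.02627 at E8.5 and 0.00126 at E9.5). At E8.5, 6 of 10 genes passed an adjusted p of 0.05 (limma, Benjamini-Hochberg over all tested genes), 3 higher and 3 lower, against 7.17% of all tested genes, 3.79% higher and 3.38% lower. At E9.5 the same 6 passed in the same directions, against 8.54% of all tested genes, 2.75% higher and 5.79% lower. Over both stages together these 6 passed again, beside 11.9% of all tested genes, 5.13% higher and 6.82% lower. For these 6 genes no closed array overlapped an open array of its stage, beside 27.5% of all tested genes at E8.5 and 22.5% at E9.5. The median size of the closed minus open difference, whatever its sign, was 0.55 for the 10 genes at E8.5 against 0.12 for all tested genes. At E9.5 it was 0.71 against 0.15.

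**Figure D1:**
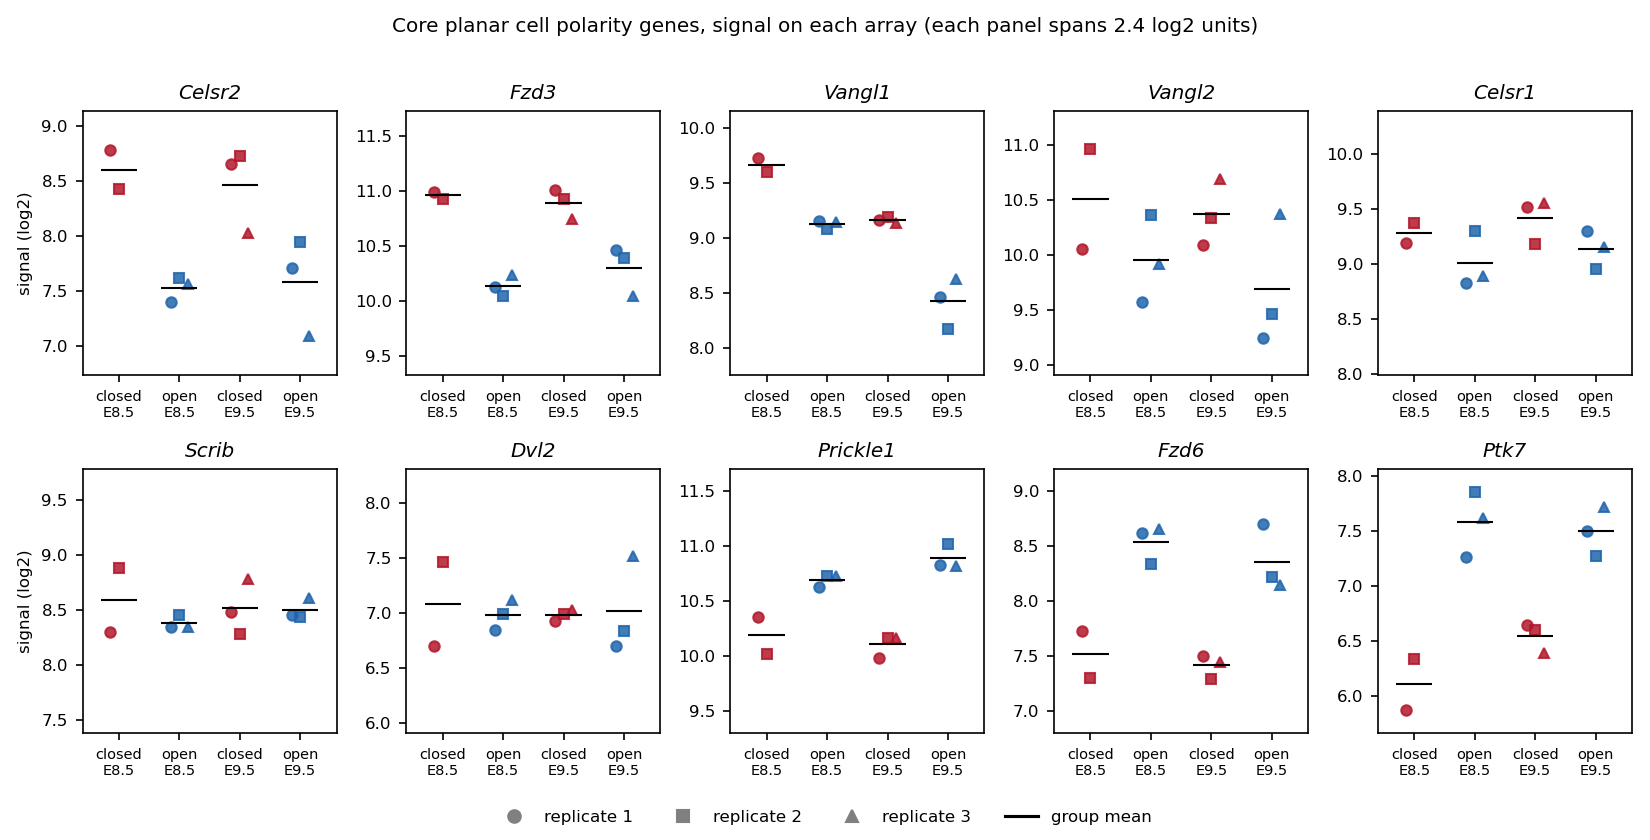
Deposited log2 signal of each of the 10 genes on each of the 11 arrays, by group, with closed beside open tissue at each stage; points are arrays and lines are group means. The closed and open points are apart at both stages for Vangl1, Celsr2, Fzd3, Fzd6, Ptk7 and Prickle1, and overlap for Vangl2, Celsr1, Dvl2 and Scrib.

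Promoter sequences from RefSeq (GRCm38.p6), matched by symbol, were at hand for 5 of the 10 genes, among 32851 mouse promoters of the same length. Of the 6 genes that changed, 3 had an entry, and these are shown because they include a gene higher in closed tissue (Celsr2) and a pair lower there (Ptk7 and Prickle1). Each is the 250 bases before the annotated start of the transcript, read 5′ to 3′ on the gene's own strand, which is minus for all 3. They lie at chr3:108415580-108415829 for Celsr2, chr17:46629505-46629754 for Ptk7 and chr15:93595903-93596152 for the upstream of 2 Prickle1 starts. Capitals mark matches to the GC box, the letters GGGCGG or their reverse complement CCGCCC.
Celsr2: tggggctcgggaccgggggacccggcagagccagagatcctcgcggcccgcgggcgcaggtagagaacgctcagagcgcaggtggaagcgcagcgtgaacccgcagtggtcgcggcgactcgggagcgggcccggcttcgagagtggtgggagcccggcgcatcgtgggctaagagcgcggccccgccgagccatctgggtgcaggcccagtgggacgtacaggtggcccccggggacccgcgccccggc
Ptk7: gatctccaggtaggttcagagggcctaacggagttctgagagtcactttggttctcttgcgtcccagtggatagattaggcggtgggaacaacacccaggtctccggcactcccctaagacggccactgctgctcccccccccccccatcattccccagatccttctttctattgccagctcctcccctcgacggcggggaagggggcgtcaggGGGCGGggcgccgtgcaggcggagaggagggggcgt
Prickle1: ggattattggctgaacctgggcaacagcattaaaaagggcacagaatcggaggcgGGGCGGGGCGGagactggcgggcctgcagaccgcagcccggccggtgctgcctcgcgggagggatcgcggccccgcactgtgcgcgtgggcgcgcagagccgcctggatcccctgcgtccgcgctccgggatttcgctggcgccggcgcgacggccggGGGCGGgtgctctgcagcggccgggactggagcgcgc

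All 3 were rich in GC, with 75.2% for Celsr2, 64.0% for Ptk7 and 74.0% for Prickle1, against a median of 52.4% over all promoters. The ratio of observed to expected CpG was 0.923 in Celsr2 and 1.015 in Prickle1, above 89.9% and 94.9% of promoters. In Ptk7 it was 0.547, above 62.6% of promoters. A GC box occurs in 32.7% of all promoters on either strand. Ptk7 held 1, at 36 bases before the start, and Prickle1 held 3, at 37, 190 and 195 bases before it, of which the 2 upstream ones overlap by a base. Celsr2 held none. The other motifs searched, also on both strands, were ATCAAAG, the TCF/LEF core, found in 3.21% of all promoters, AGGTCA, a retinoid receptor half-site, found in 14.0%, and TATAAA, found in 12.4%. None of these letters were in the 3 windows.

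Among the transmembrane components, Celsr2 passed the threshold and its paralogue Celsr1 did not, with positive differences in both; the difference between them was not tested. Celsr2, an atypical cadherin that bridges neighbouring cells, read 8.78 and 8.43 on closed E8.5 arrays, against 7.40, 7.62 and 7.57 on open E8.5 arrays. At E9.5 it read 8.66, 8.73 and 8.03 on closed arrays, against 7.71, 7.95 and 7.09 on open arrays. Every closed array was above every open array at both stages. The closed minus open difference was 1.08 (SE 0.26, adjusted p = 0.02669, limma) at E8.5, a 2.11-fold higher level, and 0.89 (SE 0.23, adjusted p = 0.0355) at E9.5. The E8.5 call was lost without any 1 of the 5 E8.5 arrays, and leaving out a closed one leaves 1 closed E8.5 array. Without an open E8.5 array the E8.5 adjusted p was 0.05864 to 0.09452. The E9.5 call was lost in 9 of 23 alternatives, at adjusted p up to 0.1524. A dimmer second Celsr2 probe set differed by 0.32 (adjusted p = 0.4167) and 0.30 (adjusted p = 0.2895). Over both stages the difference of the leading probe set was 0.98 (SE 0.17, adjusted p = 0.002415).

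Celsr1, its paralogue, read 9.19 and 9.37 on closed E8.5 arrays, against 8.83, 9.30 and 8.90 on open ones. At E9.5 the closed arrays read 9.52, 9.19 and 9.55, against 9.30, 8.96 and 9.16 on open arrays. The groups overlapped at both stages. The difference was 0.27 (95% interval -0.11 to 0.66, adjusted p = 0.6071) at E8.5 and 0.28 (-0.06 to 0.62, adjusted p = 0.3848) at E9.5.

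The Frizzled receptors moved in opposite directions. Fzd3 read 10.99 and 10.93 on closed E8.5 arrays, against 10.12, 10.04 and 10.24 on open ones. At E9.5 it read 11.01, 10.93 and 10.74 on closed arrays, against 10.47, 10.39 and 10.05 on open arrays. No closed array overlapped an open one, and the differences were 0.83 (SE 0.14, adjusted p = 0.002464) and 0.59 (SE 0.12, adjusted p = 0.00921). All 5 tested Fzd3 probe sets had positive differences, of 0.32 to 0.83 at E8.5 and 0.21 to 0.59 at E9.5. Tested one by one in limma at E9.5, only the leading probe set passed (adjusted p = 0.01458), with adjusted p of 0.1066 to 0.8553 for the others. The mean of all 6 Fzd3 probe sets, including one too dim to test, missed the threshold at E9.5 (0.33, adjusted p = 0.0559).

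Fzd6, the other receptor, read 7.73 and 7.30 on closed E8.5 arrays, against 8.62, 8.33 and 8.65 on open ones. At E9.5 Fzd6 read 7.50, 7.29 and 7.45 on closed arrays, against 8.70, 8.22 and 8.15 on open arrays. All closed arrays lay below all open arrays of either stage. The difference was -1.02 (SE 0.19, adjusted p = 0.00605) at E8.5, a 2.03-fold lower level, and -0.94 (SE 0.17, adjusted p = 0.004374) at E9.5. Without the second closed E8.5 array, which leaves 1 closed E8.5 array, the E8.5 difference was -0.81 and the call was lost. A dimmer second Fzd6 probe set differed by -0.30 and -0.13. Without open E9.5 arrays 1 and 2 together, which leaves 1 open E9.5 array, the E9.5 difference was -0.73 and the call was lost.

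The Vangl proteins, which hold the complex opposite Frizzled, were both higher on average in closed tissue. Vangl1 read 9.73 and 9.60 on closed E8.5 arrays, against 9.15, 9.08 and 9.15 on open ones. At E9.5 it read 9.16, 9.19 and 9.14 on closed arrays, against 8.47, 8.18 and 8.63 on open arrays. Its differences were 0.54 (SE 0.14, adjusted p = 0.03398) and 0.74 (SE 0.12, adjusted p = 0.002182), with no overlap. The E8.5 call was the less settled, lost in 11 of 23 alternatives with adjusted p up to 0.2028. These include leaving out any 1 array of E8.5, and leaving out a closed one leaves 1 closed E8.5 array. A second Vangl1 probe set differed by 0.91 and 0.71. At E9.5 the call was lost without open E9.5 arrays 1 and 2 together (0.54), which leaves 1 open E9.5 array.

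Vangl2, the paralogue most needed for neural tube closure in mice, read 10.05 and 10.97 on closed E8.5 arrays, against 9.58, 10.37 and 9.92 on open ones. At E9.5 Vangl2 read 10.10, 10.34 and 10.70 on closed arrays, against 9.25, 9.47 and 10.37 on open arrays. The groups overlapped, and the differences of 0.56 (95% interval -0.22 to 1.34, adjusted p = 0.6034) and 0.68 (-0.02 to 1.38, adjusted p = 0.2758) did not pass. The E8.5 difference was 0.10 without closed E8.5 array 2 and 1.02 without closed E8.5 array 1, each of which leaves 1 closed E8.5 array. It was 0.37 without open E8.5 array 1 (adjusted p = 0.9322). Arrays of the same stage and replicate number deviated together over all tested genes. At E9.5 some pairs of unlike number did so to a like degree, and the labels do not state a pairing. Within the same-numbered pairs Vangl2 was higher in closed tissue each time, by 0.48 and 0.60 at E8.5 and by 0.85, 0.87 and 0.32 at E9.5. With the replicate number as a block its difference was 0.54 at E8.5 (adjusted p = 0.02627), 0.68 at E9.5 (adjusted p = 0.00126) and 0.61 over both stages (adjusted p = 0.0003865). In that fit 1 open E8.5 array has no closed array of its number, so the E8.5 value rests on the 2 same-numbered pairs. The block also leaves fewer residual degrees of freedom than the fit without it. The block takes the count of genes past the threshold to 7 of 10 at E8.5, beside 9.99% of all tested genes, to 7 at E9.5, beside 16.7%, and to 7 over both, beside 16.8%.

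Arrays also differed in a measure of RNA quality. The difference in signal between 3′ and 5′ control probe sets, larger where RNA or labelling is less complete, was 1.72, 1.44 and 1.20 on closed E9.5 arrays, against 2.20, 2.48 and 1.14 on open E9.5 arrays. It was 1.82 and 1.18 on closed E8.5 arrays, against 1.32, 1.15 and 1.30 on open E8.5 arrays. With this measure as a covariate the Vangl2 difference was 0.79 at E8.5 (adjusted p = 0.009102) and 0.22 at E9.5 (adjusted p = 0.4494). Without open E9.5 arrays 1 and 2, which leaves 1 open E9.5 array, the E9.5 difference was 0.00. Without open E9.5 array 3 it was 1.02 (adjusted p = 0.03777). With array weights the E9.5 difference was 1.03 (adjusted p = 0.002584). Vangl2's other 2 probe sets differed by 0.80 and 0.08 at E8.5 and by 0.48 and 0.53 at E9.5.

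**Figure D2:**
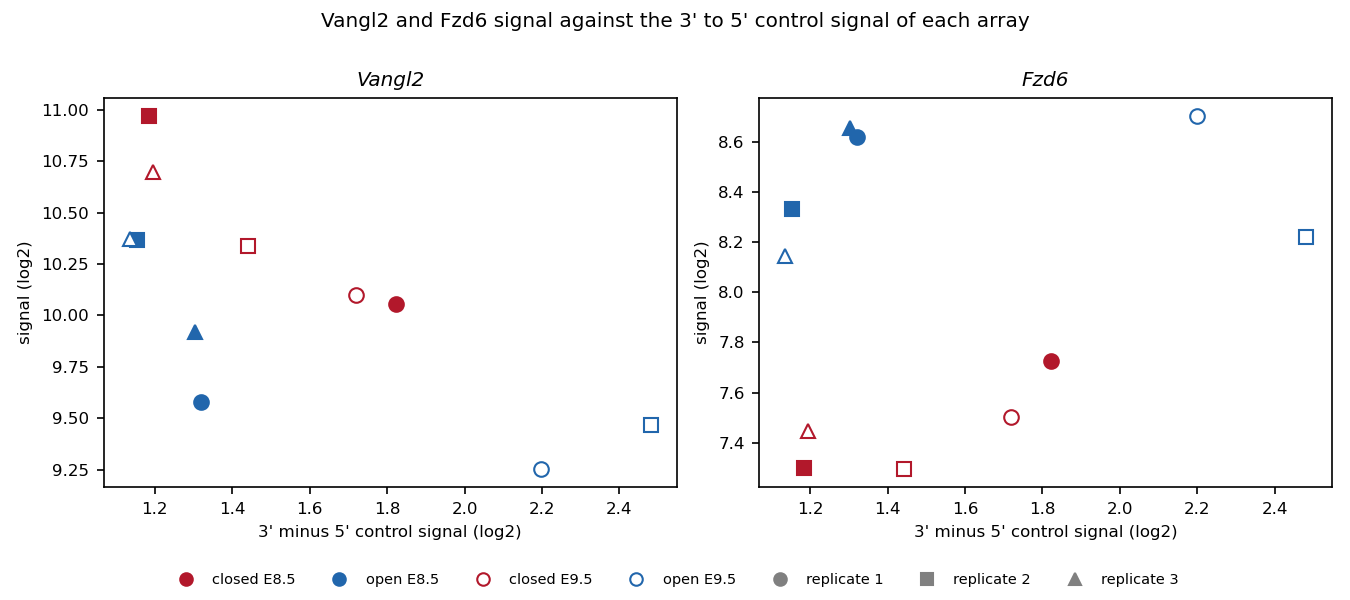
Log2 signal of Vangl2 and of Fzd6 on each array against the 3′ minus 5′ difference (log2) of its control probe sets, closed arrays red and open arrays blue, E8.5 filled and E9.5 unfilled. Open E9.5 arrays 1 and 2 have the largest 3′ minus 5′ values, 2.20 and 2.48, and the lowest Vangl2 of the 11 arrays; Fzd6 separates closed from open arrays along the whole axis.

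Of the cytoplasmic proteins, Prickle1, the LIM-domain partner of Vangl, fell, and the others did not pass the threshold. Prickle1 read 10.35 and 10.02 on closed E8.5 arrays, against 10.63, 10.72 and 10.73 on open ones. At E9.5 Prickle1 read 9.98, 10.16 and 10.16 on closed arrays, against 10.83, 11.01 and 10.82 on open arrays. The difference was -0.51 (SE 0.12, adjusted p = 0.02755) at E8.5 and -0.78 (SE 0.11, adjusted p = 0.0006926) at E9.5. The E8.5 call was lost in 6 of 23 alternatives, 1 of them without closed E8.5 array 2 (-0.34), which leaves 1 closed E8.5 array. Taking the mean of all 3 probe sets, of which 2 were too dim to test, gave -0.20 and -0.25 and lost both calls.

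Dvl2, a Dishevelled adaptor below Frizzled, read 6.70 and 7.47 on closed E8.5 arrays, against 6.85, 6.99 and 7.12 on open ones. At E9.5 it read 6.93, 6.99 and 7.03 on closed arrays, against 6.71, 6.84 and 7.52 on open arrays. Closed and open Dvl2 values were interleaved, and the same-numbered pairs differed in sign. Scrib, a scaffold of the lateral membrane, read 8.29 and 8.88 on closed E8.5 arrays, against 8.34, 8.45 and 8.34 on open ones. At E9.5 Scrib read 8.48, 8.28 and 8.78 on closed arrays, against 8.45, 8.43 and 8.60 on open arrays. In both genes the closed and open arrays overlapped at both stages. The intervals allow a Dvl2 difference of -0.46 to 0.65 at E8.5 and -0.54 to 0.46 at E9.5, and a Scrib difference of -0.20 to 0.61 and -0.35 to 0.38.

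Ptk7, a catalytically inactive receptor tyrosine kinase, had the largest difference of the 10 genes at E8.5. It read 5.87 and 6.33 on closed E8.5 arrays, against 7.26, 7.85 and 7.62 on open ones. At E9.5 Ptk7 read 6.64, 6.60 and 6.39 on closed arrays, against 7.50, 7.27 and 7.71 on open arrays. Every closed array was below every open one, by a difference of -1.47 (SE 0.20, adjusted p = 0.0006872) at E8.5, a 2.78-fold lower level, and -0.95 (SE 0.18, adjusted p = 0.005856) at E9.5. At E8.5 this call and that of Fzd3 held in all 23 alternatives. Over both stages the difference was -1.21 for Ptk7, -0.98 for Fzd6, -0.65 for Prickle1, 0.71 for Fzd3 and 0.64 for Vangl1, with adjusted p of at most 0.00049 for each.

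**Figure D3:**
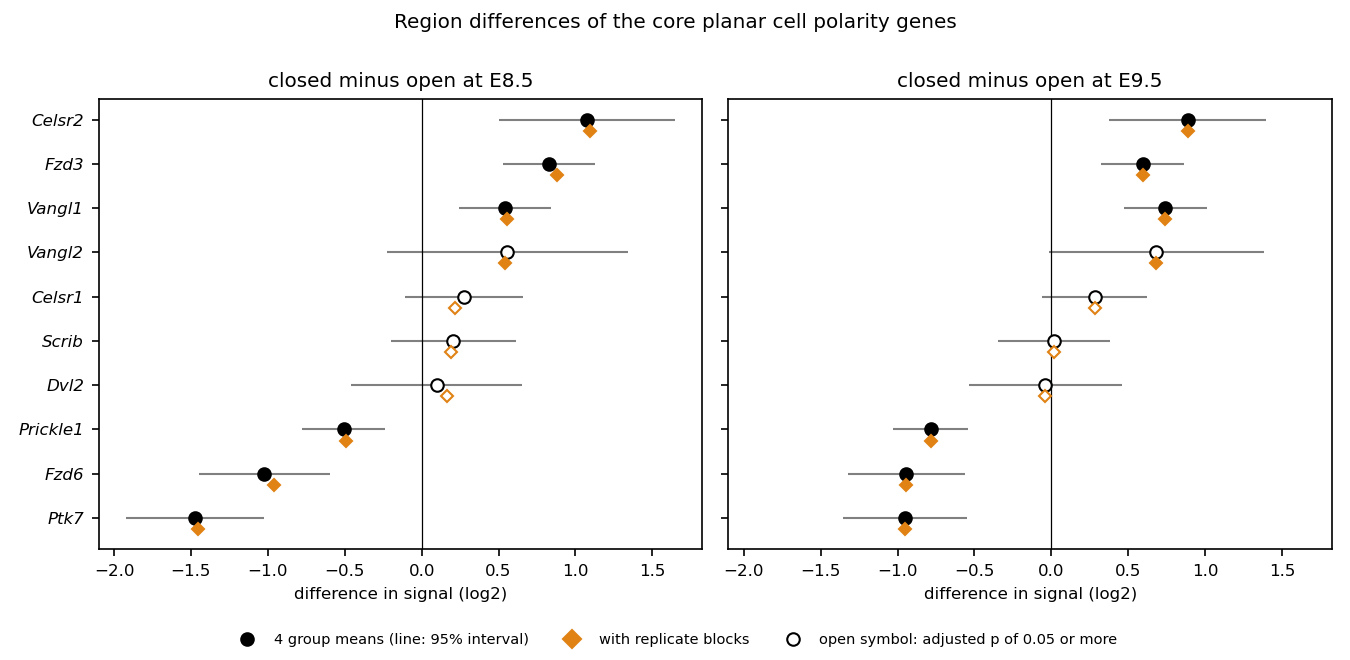
Closed minus open difference (log2) of the 10 genes at E8.5 and E9.5, as circles with 95% intervals as lines, and with the replicate number as a block as diamonds; filled symbols have an adjusted p under 0.05. Ptk7, Fzd6 and Prickle1 lie below 0 and Celsr2, Fzd3 and Vangl1 above it at both stages.

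The closed and open tissue also differed in markers of other cells, whose part in the results was not tested. Summed signal of 8 neural markers was 13.37 to 13.41 in closed E8.5 and 13.28 to 13.33 in closed E9.5 tissue. In open tissue of those stages it was 12.63 to 12.72 and 12.62 to 12.78. Of these 8, 4 passed the threshold at E8.5 and 5 at E9.5, each with more signal in closed tissue. The shares of all tested genes called higher were 3.79% and 2.75%. The 8 had a median difference of 0.53 at E8.5 and 0.50 at E9.5. Zic2 went the other way, averaging 7.35 in closed and 7.76 in open tissue at E8.5. At E9.5 it averaged 7.32 and 7.87. With the block 1 member passed as lower at E9.5. Summed signal of 8 presomitic and somite markers was 8.38 to 9.32 and 8.28 to 8.31 in closed tissue, against 10.05 to 10.28 and 9.46 to 9.95 in open tissue. Of 7 tested members, Tbx6 and Hes7 were lower in closed tissue at each stage, beside 3.38% and 5.79% of all tested genes. The others did not pass, and the 7 had a median difference of -0.01 at E8.5 and -0.04 at E9.5. Over both stages Meox1, a somite gene, was higher in closed tissue (0.90, adjusted p = 0.04129). It read 6.30 and 8.11 on closed E8.5 arrays 1 and 2, against 5.99, 5.76 and 5.71 on open E8.5 arrays, and Foxc2, below the filter over all arrays, read 4.08 and 6.50, against 3.57, 3.48 and 3.49. The sums of 6 endoderm markers were 8.78 to 8.86 and 8.60 to 8.77 in closed tissue, against 9.35 to 9.64 and 9.20 to 9.36 in open tissue. Of 5 tested endoderm members 1 was lower at each stage, beside 3.38% and 5.79% of all tested genes. Their median difference was -0.11 at E8.5 and -0.13 at E9.5. At E8.5 Cldn6 averaged 5.85 in closed and 8.03 in open tissue, and Foxa1 7.91 and 8.02. The 4 notochord markers with a probe set summed to 10.40 to 10.70 in closed and 11.01 to 11.34 in open tissue at E8.5. At E9.5 they summed to 11.14 to 11.43 in closed and 10.50 to 10.78 in open tissue. Shh was the brightest of them in every group, so the sums mostly follow Shh. Of 3 tested, 2 were lower at E8.5 and 2 higher at E9.5, beside 3.38% and 2.75% of all tested genes. Members went both ways. At E8.5 Foxa2 averaged 8.36 in closed and 7.77 in open tissue, against the sum. At E9.5 Chrd averaged 5.92 and 6.27, also against it. T and Noto had no one-symbol probe set in the table used here. The 8 surface ectoderm markers summed to 10.21 to 10.54 and 10.05 to 10.46 in closed tissue, against 10.54 to 10.84 and 10.02 to 10.19 in open tissue. The 7 tested had a median difference of -0.88 at E8.5 and -0.02 at E9.5, and members went both ways. At E8.5 Tfap2c averaged 9.17 in closed and 7.75 in open tissue, and Epcam 6.52 and 7.61. Of 8 endothelial and blood markers, the vessel and blood-progenitor genes Pecam1, Cdh5, Tek, Gata1 and Tal1 were below the brightness filter, and the list summed to 8.42 to 9.21 and 9.55 to 10.37 in closed tissue, against 7.70 to 8.95 and 10.54 to 11.04 in open tissue. At E9.5 the globin gene Hbb-bh1 averaged 9.61 in closed and 10.4 in open tissue, and Kdr went the other way, at 5.92 and 5.23. Sox2, a neural progenitor factor, was bright in every group, averaging 11.4 and 11.5 in closed and 11.3 and 11.1 in open tissue.

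Between stages only Vangl1 passed the threshold. In open tissue it was lower at E9.5 (8.47, 8.18 and 8.63) than at E8.5 (9.15, 9.08 and 9.15), with a difference of -0.70 (SE 0.12, adjusted p = 0.005581), the 1 of 10 genes past the threshold, beside 5.02% of all tested genes in either direction and 1.42% lower. Vangl1 and Prickle1 did not overlap between stages there, beside 21.8% of all tested genes. Without open E9.5 arrays 1 and 2, which leaves 1 open E9.5 array, the Vangl1 difference was -0.50 and the call was lost. In closed tissue 0 of 10 passed in limma, beside 2.42% of all genes. At an unadjusted p under 0.05 the count there was 1, beside 10.2% of all tested genes, namely Vangl1, at -0.50 (95% interval -0.80 to -0.20, adjusted p = 0.1008). Ptk7 was 0.44 higher in closed tissue at E9.5 than at E8.5; it and Vangl1 did not overlap, beside 21.2% of all tested genes, but the interval ran from -0.01 to 0.89 (adjusted p = 0.5063). The closed and open stage contrasts and the region contrasts share arrays.

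Whether the region difference itself changed between stages was tested as an interaction. It passed for 0 of 10 genes in limma, with or without the block, beside 1.25% of all tested genes without it and 3.39% with it, and for 0 at an unadjusted p under 0.05, beside 9.6%. The Ptk7 interaction was 0.52 (95% interval -0.08 to 1.12, adjusted p = 0.6099), and Prickle1's was -0.28 (-0.64 to 0.09, adjusted p = 0.666). By mean level Vangl1 was lowest in open E9.5, then overlapped in open E8.5 and closed E9.5, and was highest in closed E8.5. Celsr2, Fzd3 and Fzd6 stepped only between the regions.

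Outside these 10, the genes most like the leading pair over the 11 arrays were sought by Pearson correlation among 13328 tested genes, as a description over points that share the groups. For Celsr2 they were Myb (r = 0.97), Ap3m2 (0.97), Spata13 (0.95), Gadd45a (0.95) and Ptn (0.95). Gadd45a was 1.64 and 1.75 higher in closed tissue. For Ptk7 they were Dll3 (0.97), a Notch ligand of the presomitic mesoderm, the caudal homeobox genes Cdx2 (0.97) and Cdx4 (0.97), Cd276 (0.97) and Notum (0.97), a secreted Wnt inhibitor. The closed minus open difference of Dll3 was -3.87 and -2.28.

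Among 8 tested paralogues of the core genes, 2 were higher at E8.5 and 2 higher and 1 lower at E9.5 in closed tissue. The shares over all tested genes were 3.79% higher at E8.5, and 2.75% higher and 5.79% lower at E9.5. Fzd7, another Frizzled receptor, was 2.09 higher at E8.5 (adjusted p = 0.0001974) and 2.51 at E9.5 (adjusted p = 1.676e-05). Ankrd6, the relative of fly Diego, was 0.69 and 1.68 higher, and Prickle2 was lower at E9.5, at -0.98 (adjusted p = 0.02779). With the block, which called 16.7% of all tested genes at E9.5, the E9.5 counts were 3 higher and 2 lower. Over both stages Fzd1 was also lower, at -0.50 (adjusted p = 0.01177).

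Of 16 noncanonical Wnt ligands, co-receptors and modulators, 5 were higher and 4 lower in closed tissue at each stage, beside 3.79% of all tested genes higher and 3.38% lower at E8.5, and 2.75% higher and 5.79% lower at E9.5. The ligands Wnt5a, at -2.41 and -2.04, and Wnt5b, at -2.29 and -2.12, were lower, and Wnt4 was 1.83 and 2.91 higher. Sfrp5, a secreted Wnt antagonist, was 2.96 higher at E8.5 (adjusted p = 4.138e-07). Sdc4, a heparan sulphate co-receptor, was 1.41 higher at E8.5 (adjusted p = 0.00708) and 1.59 higher at E9.5. Of 11 genes of Vangl and Dvl traffic and turnover, Dact1, a Dishevelled-binding protein, was lower at both stages, at -1.01 and -1.19. The block gave 3 higher and 2 lower at E9.5, where it called 16.7% of all tested genes against 8.54% without it.

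Of 17 downstream effectors 0 passed at E8.5 in limma, with 1 at an unadjusted p under 0.05, beside 14.9% of all tested genes, and 1 with the block, beside 9.99%. At E9.5 the formins Daam1 (-0.75) and Daam2 (-0.55) were lower, beside 5.79% of all tested genes lower. The block gave 4 lower, beside 16.7% of all tested genes in either direction. Over both stages Shroom3, an actin-binding protein of apical constriction, was lower too, at -0.53 (adjusted p = 0.01297). Of 10 Scrib partners, Llgl2, a basolateral polarity protein, was 2.01 and 1.01 higher and the scaffold Dlg1 was lower, at -0.51 and -0.46, with Dlg5 also lower at E9.5 (-0.52). Of all tested genes 3.79% were higher and 3.38% lower at E8.5, and 2.75% higher and 5.79% lower at E9.5. Of 6 Fat and Dachsous genes, Fat4, a giant cadherin, was lower at E9.5, at -1.56 (adjusted p = 4.46e-05), while at E8.5 0 passed, with 2 at an unadjusted p under 0.05 and 1 with the block, beside 14.9% and 9.99% of all tested genes. Prickle3, Prickle4, Rock2, Lrrc7 and Dchs2 had no one-symbol probe set in the table used here.

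**Figure D4:**
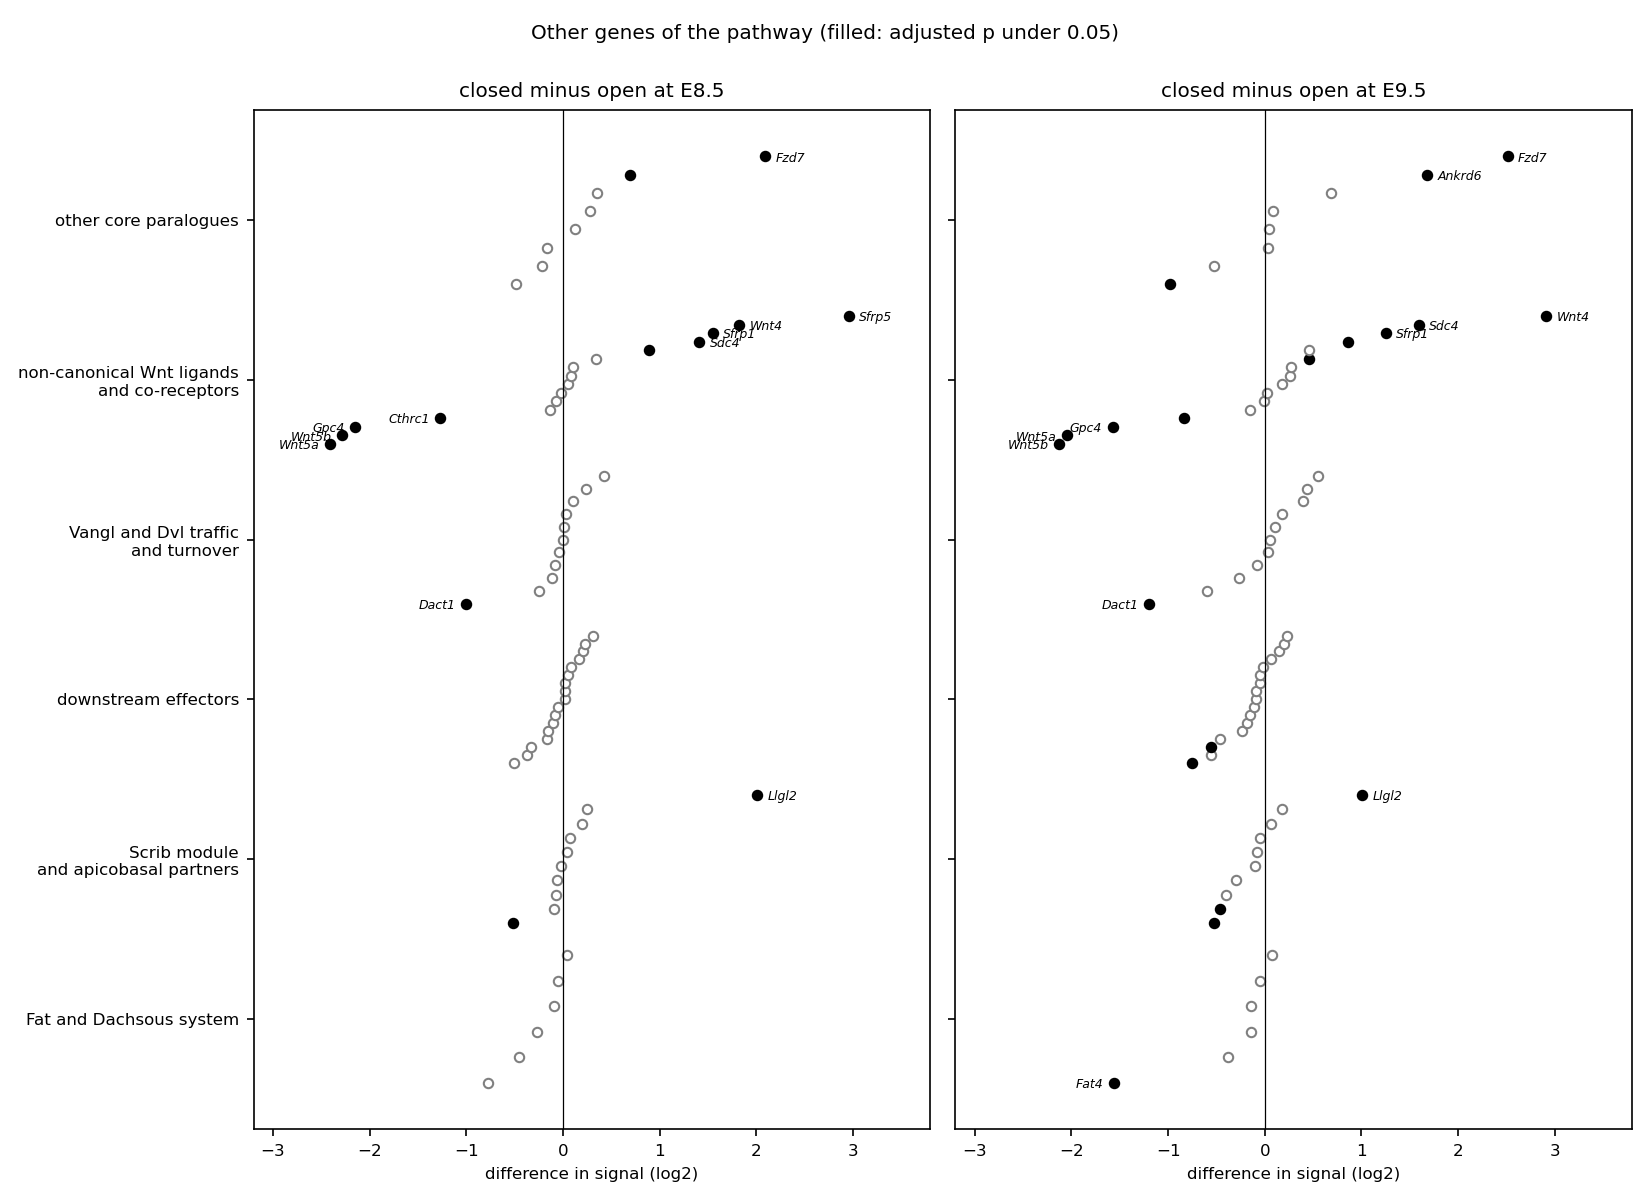
Closed minus open difference (log2) of the pathway genes by list at E8.5 and E9.5, each point a gene and filled points those with an adjusted p under 0.05. The Wnt list spreads widest, from Wnt5a below -2 at both stages to Sfrp5 at E8.5 and Wnt4 at E9.5 above 2.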

How the data were processed

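The arrays were Affymetrix GeneChip Mouse Genome arrays, labelled from 50 ng of RNA by a 2-cycle protocol, per the labels. The authors' deposited values are log2 signals of 45101 probe sets on 11 arrays, from 2.37 to 14.7, with 0 missing. The submitters' processing notes name MAS5 with no version or role. The background correction and normalization are not given in the sources used here, so the values were used as deposited, without rescaling. They have no read depth, and the number of arrays limits precision.

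Of the probe sets, 34945 carried 1 gene symbol, and those with several (932), none (9160) and the 64 controls were left out. Each gene took its probe set of highest mean. The brightness filter kept 13338 genes whose mean reached 4.30, the 40th percentile over probe sets. A linear model with a mean for each of the 4 groups was fitted in limma 3.58.1 (R 4.3.3), using eBayes with its trend option, two-sided, on 7 residual degrees of freedom, with Benjamini-Hochberg adjustment over all tested genes and a threshold of 0.05. The scripts were tested on simulated data.

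Arrays of a group were taken as biological replicates, as the labels say. Same-numbered closed and open arrays deviated together from their group means over 13338 genes, with r of 0.58 and 0.70 for the E8.5 pairs and 0.31, 0.34 and 0.69 for the E9.5 pairs, so the replicate number was taken as a block within stage in an alternative fit. Different-numbered pairs reached 0.31 at E8.5 and 0.32 at E9.5. Closed E9.5 array 1 had r of 0.31 with open E9.5 array 1 and 0.32 with open E9.5 array 2. The 2 closed E8.5 arrays deviate from their mean in mirror image, so the 2 E8.5 values are not separate evidence of pairing. Alternatives were no brightness filter or a stricter one, quantile normalization, median centring, the mean of a gene's probe sets or each probe set alone, array weights, eBayes without its trend, a fit of only the groups compared, the block, the RNA quality covariate and leaving out arrays. The genes, pathway lists and cell type markers were chosen with earlier results of these data known. From each pathway list the text names, per direction, at most the 2 genes with the smallest p past the threshold.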

Additional observations from a re-analysis of the deposited data

How the results depend on the processing

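The 6 genes called over both stages were called in all 22 alternatives run there, except Prickle1 with the mean of its probe sets (-0.23, adjusted p = 0.08884), where 2 of 3 are too dim to test. At E8.5 the count of 6 fell to between 2 and 6 when 1 array was left out: to 3 without any 1 open E8.5 array, and to 2 without closed E8.5 array 2. With the replicate block the counts were 7 in each of the 3 region comparisons, from the addition of Vangl2, and 0 for the interaction. For the stage difference in open tissue the count of 1 was 3 with array weights and 0 without open E9.5 arrays 1 and 2. In closed tissue the count of 0 was 1 with the RNA quality covariate, and 0 to 1 when 1 array was left out, the 1 without open E9.5 array 2. Over all genes at E9.5, 1139 calls became 2221 with the block, 3424 with array weights, 1764 with the covariate and 603 without open E9.5 arrays 1 and 2. At E8.5, 957 became 1519 with the covariate. For stage in open tissue, 670 became 4301 with array weights and 182 without open E9.5 arrays 1 and 2. Across all alternatives the counts over all genes ran between 150 and 730 for stage in closed tissue (323 in the main setting) and between 72 and 452 for the interaction (167). Array weights gave open E9.5 array 1 6.29, against 0.74 and 0.31 for the other two. Leaving out either closed E8.5 array, or open E9.5 arrays 1 and 2 together, leaves 1 array in that group, so those counts rest on 1 array there. The cause of these moves was not tested. No gene changed sign with a call on either side.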

Other observations

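Genes of the pathway lists also differed between stages. Wnt5a, a noncanonical ligand, was higher at E9.5 than at E8.5 in closed tissue by 1.52 (adjusted p = 0.0002477, limma) and in open tissue by 1.16 (adjusted p = 0.0005481). The antagonist Sfrp5 was lower at E9.5 in closed tissue, at -2.90 (adjusted p = 4.311e-06), and its closed minus open difference shrank between stages (interaction -2.68, adjusted p = 0.0001829). Llgl2 was lower at E9.5 in closed tissue, at -1.38 (adjusted p = 0.0001232), and its closed minus open difference also shrank (interaction adjusted p = 0.01629). Fat3 was higher at E9.5 in both tissues, by 1.66 in closed and 0.92 in open tissue, and Fat4 was higher in open tissue by 1.18. The formin Daam1 was 0.67 higher and the kinase Mapk9 0.72 higher at E9.5 in open tissue.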
